A study of Sus scrofa with 54 samples.

Results

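The genes described here are those with far more RNA in pig blood than in heart or skeletal muscle. They were chosen by a rule on the deposited read counts, expressed as CPM, the count divided by the sample's total and multiplied by 1000000. A gene was a member when its median over the 6 blood samples was at least 100 CPM and at least 10 times the higher of 2 other medians, those of the 6 baseline conventional endomyocardial biopsy (EMB) samples and of the 6 skeletal muscle samples, after adding 1 CPM to that higher median. The rule found 181 of 25114 genes, which is under its limit of 300. A symbol could be given to 134 of them and the remaining 47 are known here by identifier. The measured levels in blood, baseline conventional EMB and skeletal muscle chose the members, and these groups are described without a test.

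The study sampled the left ventricle of 5 adult female Yorkshire-Swedish farm pigs, which carried no allele or drug treatment that the labels name, with a miniaturised biopsy device (micro-EMB) and with a standard bioptome (conventional EMB). Micro-EMB gave 20 baseline samples from 5 pigs, taken from the naive heart, and 12 follow-up samples taken on day 7 from 4 of these pigs (4491, 4494, 4664 and 4665). Conventional EMB (6 baseline and 4 day 7 samples), baseline blood (6 samples) and baseline skeletal muscle (6 samples) came from pigs 4491 and 4494 only. The heart had been biopsied at baseline in every pig that was followed up, so day 7 and an earlier biopsy cannot be told apart. Biopsies of a pig share the animal, so the pig was kept as a block, and p-values measure the spread between biopsies of these few animals.

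Blood RNA is a mixture. Red cell precursors and young red cells carry globin and haem synthesis transcripts. White cells share genes for adhesion, signalling and the cytoskeleton, and T cells, natural killer (NK) cells, B cells and neutrophils each add genes of their own. Platelets carry transcripts inherited from megakaryocytes. In a piece of heart such RNA can come from blood in the vessels, from blood carried with the biopsy, from clots, or from white cells within the tissue, and in bulk samples fewer cells of a type and less RNA per cell cannot be told apart.

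Counted reads per sample ranged from 64216 to 4649613. Micro-EMB baseline samples 9, 10 and 21 had under 5000 genes at 1 CPM or more and were left out of the day 7 tests and the correlations, leaving 17 baseline micro-EMB samples and 45 heart and muscle samples. Heart muscle markers (MYH6, TNNT2, MYL3, ACTC1, NPPB, MYBPC3, TNNC1 and RYR2) summed to a median of 105198 CPM in baseline conventional EMB and 98406 CPM in baseline micro-EMB, against 14.6 CPM in blood. They were nearly absent from 4 samples labelled as heart, conventional EMB baseline sample 38 (103 CPM), micro-EMB baseline sample 4 (221 CPM), micro-EMB day 7 sample 36 (591 CPM) and conventional EMB day 7 sample 55 (630 CPM). Member medians and counts of the main day 7 fits, and the correlations, are also given without these samples. Values of single genes, list percentages and counts of non-overlapping values are given only with them.

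In blood, a few members held most of the reads. The 10 most abundant made up 66.1% of the summed member medians and the top pair, ENSSSCG00000007978 and HBB, made up 54.3%. HBB, the beta chain of haemoglobin, stood at 35625, 50013 and 61359 CPM in the blood of pig 4494 and at 41340, 43379 and 21169 CPM in that of pig 4491. Its medians were 209 CPM in baseline conventional EMB and 12.2 CPM in skeletal muscle, and no heart or muscle sample reached the lowest blood value. ALAS2, which starts haem synthesis in red cells, had a blood median of 4426 CPM (range 3413 to 7462) against 25.8 CPM in baseline conventional EMB and 0 CPM in skeletal muscle. Globin genes form a family of similar copies, and how reads matching several copies were assigned is not given in the sources used here.

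The most abundant white cell member was PTPRC (CD45, a phosphatase on nearly all white cells), at 3650 CPM in blood (range 3246 to 4928), 123 CPM in baseline conventional EMB and 23.1 CPM in skeletal muscle. LCP1, an actin-bundling protein of white cells, stood at 1347 CPM in blood (1204 to 1613), and ITGA4, an integrin chain used in homing, at 1262 CPM (864 to 1514). FTL, the ferritin light chain, which stores iron in many tissues, had 2993 CPM (1503 to 3741), and EPB41, a protein of the red cell membrane skeleton, 2789 CPM (1870 to 5071). ATAD2, a chromatin-bound ATPase of dividing cells, had 1521 CPM (1018 to 3875) and HMMR, a spindle-associated protein, 1252 CPM (718 to 1842). The ratio to the other tissues was highest for ENSSSCG00000009046 (262), then ENSSSCG00000007978 (204), HBB (201), ALAS2 (165), HBM (92.3), NCF1 (73.7), IKZF3 (72.8), CD3D (71.6) and EAF2 (68.96), with ENSSSCG00000021159 (128) between ALAS2 and HBM, and its median over all members was 19.2.

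Marker lists of cell types placed 46 members and left 135 in no list. Red cells had 4 members among 23 list genes in the table (HBB, ALAS2, DMTN and HBM), neutrophils 3 of 24 (NCF1 and NCF4 among them), T and NK cells 13 of 32, B cells 5 of 14, and genes shared by most white cells 19 of 26. MHC class II presentation had 1 of 5, its regulator CIITA, and cell division 1 of 19, the checkpoint kinase BUB1B. No platelet (of 14), monocyte (of 13), macrophage (of 13) or interferon-induced gene (of 24) met the rule, although 10 interferon-induced genes had a blood median of at least 100 CPM. At the level limit, CCR7 (101 CPM), ENSSSCG00000029924 and PSTPIP1 (both 102 CPM) lay just inside and ENSSSCG00000013958 (99.0 CPM), ENSSSCG00000014087 (98.5 CPM) and FCRL3 (98.1 CPM) just outside. At the ratio limit, ENSSSCG00000027438 (10.1), HVCN1 (10.16) and SOX13 (10.17) lay just inside and SORL1 (9.87), MPHOSPH9 (9.75) and IFIT2 (9.68) just outside.

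The members took 13.4% to 25.0% of counted reads in blood (17.7% ± 4.64, SD, n = 6), 0.111% to 0.738% in skeletal muscle and 0.159% to 4.43% in heart. Blood did not overlap with any other group. The median share was 0.396% in baseline conventional EMB (n = 6), 2.22% in day 7 conventional EMB (n = 4), 0.340% in baseline micro-EMB (n = 20), 0.498% in day 7 micro-EMB (n = 12) and 0.126% in skeletal muscle (n = 6), and these 5 groups overlapped.

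Several samples stood far above their groups. The share was 4.43% in conventional EMB day 7 sample 3 (95% Wilson interval 4.29 to 4.58), 4.03% in conventional EMB baseline sample 38 (4.00 to 4.06), 3.91% in micro-EMB baseline sample 4 (3.86 to 3.97), 3.65% in conventional EMB day 7 sample 55 (3.58 to 3.71), 3.05% in micro-EMB day 7 sample 44 (3.02 to 3.08) and 1.30% in micro-EMB baseline sample 19 (1.26 to 1.34). These 6 samples exceeded 3 times the median of all heart and muscle samples, as did sample 9 with its few genes detected, and the 6 are called the member-rich samples. All 6 came from pigs 4491 and 4494. The study itself left out 7 samples that it judged contaminated with blood, from its own set of blood genes. Whether those include the 6 was not examined here, and none of the 6 was left out of the main tests or correlations. The intervals cover counting error only, and sample 3 had just 74767 counted reads, of which 3315 fell on members.

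**Figure D1:**
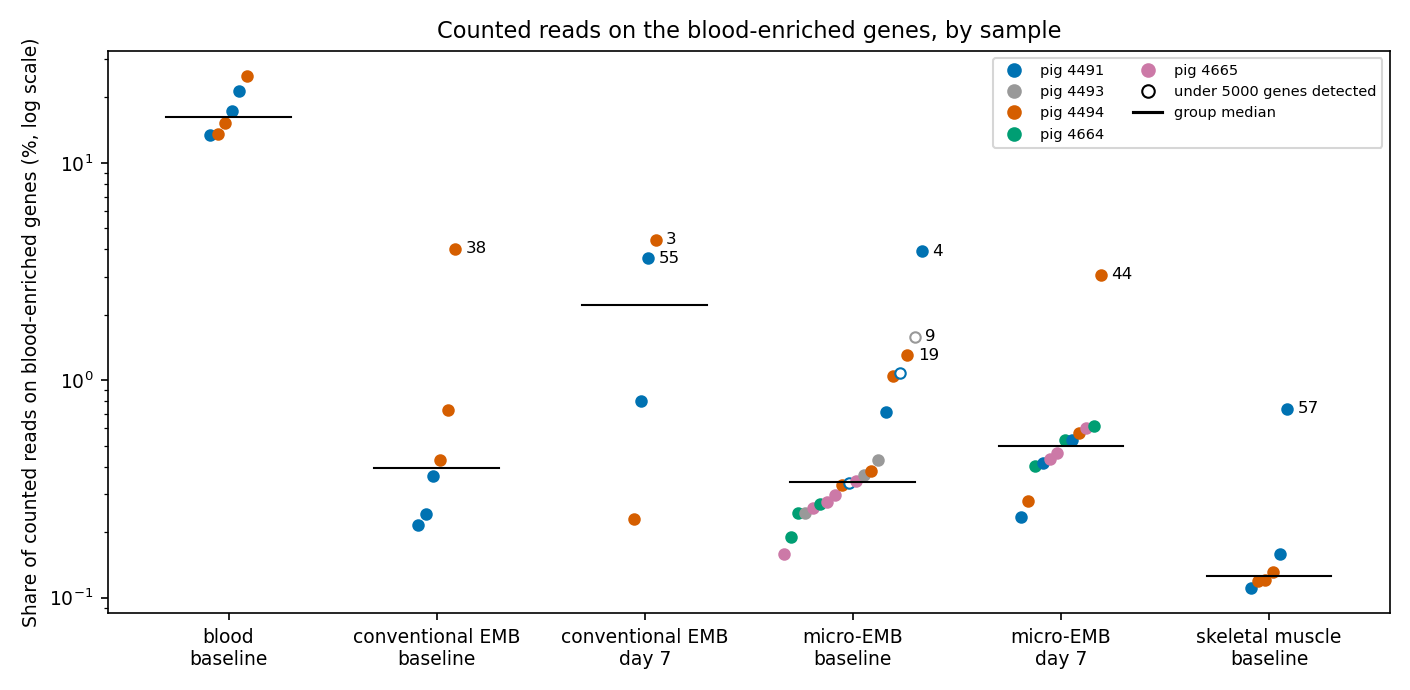
Each point is 1 sample, with its group on the horizontal axis and, on a logarithmic vertical axis, the percentage of its counted reads that fell on the 181 members. Colour marks the pig, open points are the 3 samples with under 5000 genes detected, bars are group medians, and numbered points are high samples, among which 38, 3, 55, 4 and 44 lie between 3.05% and 4.43% while blood starts at 13.4%.

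The member-rich samples did not hold the members in the proportions of the deposited blood. For each list, the summed CPM of its members was taken as a percentage of the median of the same sum in blood. In sample 38 this percentage was 1.52% for red cells, 17.7% for T and NK cells, 15.2% for B cells, 91.9% for neutrophils and 77.8% for genes of most white cells. In sample 4 the red cell list stood at 1.07%, T and NK cells at 33.9%, B cells at 80.0%, neutrophils at 52.8% and most white cells at 77.8%. In both samples genes of most white cells thus came far closer to their blood level than red cell genes did. With the median over members in place of the sum, most white cells stood at 84.5% in sample 38 and 60.9% in sample 4.

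In day 7 sample 44 the 3 neutrophil members stood at 158% of the blood median (blood range 69.7% to 171%) and the list of most white cells stood at 78.9%, but T and NK cells were at 5.79%, B cells at 3.82% and red cells at 0.199%. Samples 3 and 55, both conventional EMB from day 7, had the highest red cell member levels of any heart sample, 15.3% and 8.66%. Their neutrophil list stood at 57.7% and 84.0%, that of most white cells at 59.7% and 43.7%, and that of B cells at 49.1% and 29.9%. Sample 19 ranged from 0.396% for red cells to 25.2% for B cells, below samples 3 and 55 but above sample 44 for both lists.

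These percentages rest on members, and wider lists gave other values. The 10 neutrophil list genes with a blood median of at least 10 CPM stood at 166%, 141%, 108%, 91.7%, 64.8% and 33.7% of blood in samples 44, 38, 55, 3, 4 and 19, so samples 38 and 55 also exceeded the blood median. All 23 red cell list genes summed to 12760, 7615, 7368 and 3006 CPM in samples 3, 4, 55 and 38, against a median of 48760 CPM in blood, 1948 CPM in baseline micro-EMB and 2159 CPM in skeletal muscle. On that sum sample 4 lay above sample 55.

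**Figure D2:**
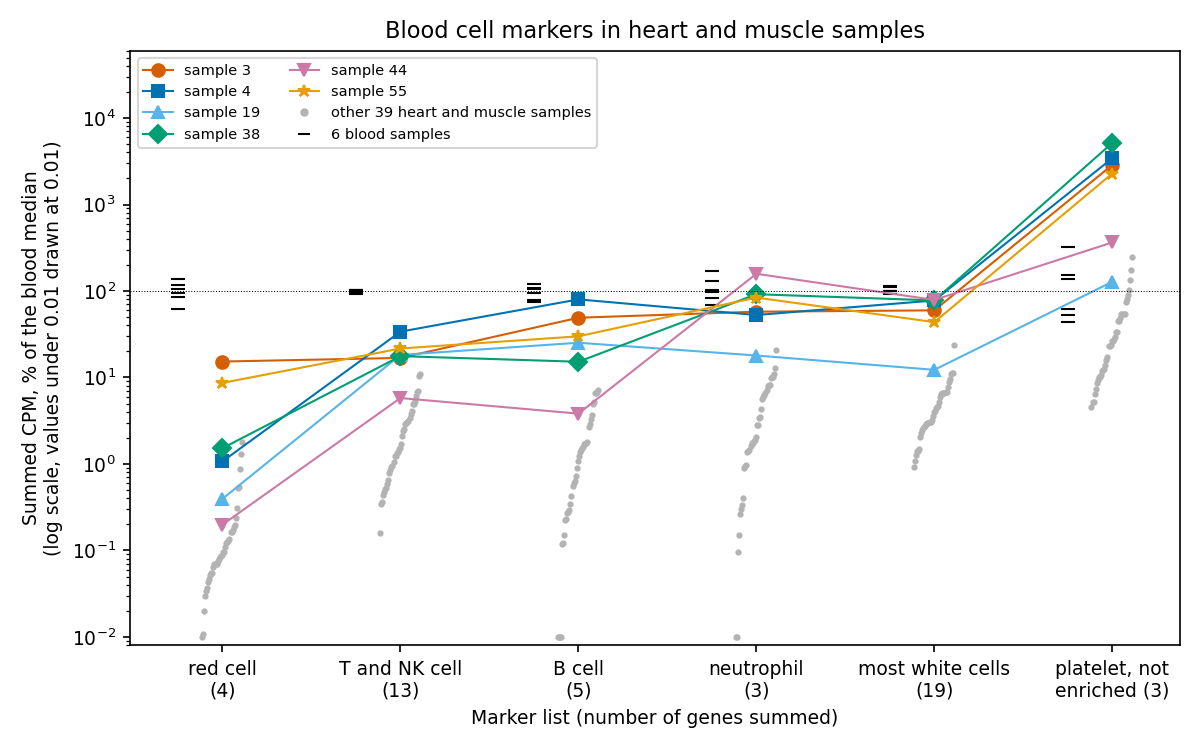
The vertical axis, logarithmic, gives the summed CPM of each marker list as a percentage of its median in blood, for the 6 member-rich samples (coloured lines), the other 39 heart and muscle samples (grey) and the 6 blood samples (black dashes). Red cell values of the coloured samples run from 0.199% to 15.3% and those of most white cells from 12.3% to 78.9%, while the 3 platelet genes, which are not members, run from 128% to 5161%.

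Single members showed the same spread. HBB, at 42360 CPM in median blood, stood at 6420, 3555, 546, 323, 41.1 and 35.3 CPM in samples 3, 55, 38, 4, 19 and 44. PTPRC, against 3650 CPM in blood, stood at 2247, 787, 1628, 2067, 123 and 3162 CPM in the same order of samples. Sample 44 was thus the lowest of the 6 for HBB and the highest for PTPRC. HCLS1, a signalling adaptor of blood cells, reached 1002, 830 and 709 CPM in samples 44, 38 and 4 against 673 CPM in blood.

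Members of separate white cell types also parted. MS4A1 (CD20, on B cells) was at 420 CPM in sample 4, above its blood median of 318 CPM, and at 0.569 CPM in sample 44. TCF7, a transcription factor of T cells with 1085 CPM in blood, stayed at 7.40 CPM in sample 44 and did not exceed 131 CPM in any member-rich sample. NCF1 and NCF4, subunits of the phagocyte oxidase, stood at 457 and 119 CPM in sample 44 against 201 and 113 CPM in blood. CD53, a membrane protein of white cells picked out after its values were seen, stood at 500%, 259% and 191% of its blood median in samples 44, 4 and 38.

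Counted over all members, samples 38, 3, 4, 55, 44 and 19 had 38, 28, 24, 20, 19 and 2 of 181 at or above their blood median. In the same order, 16, 21, 12, 6, 60 and 25 members lay under 5% of it. The median member stood at 12.4% in sample 44 and at 39.9% to 47.4% in samples 3, 4, 38 and 55. In the 39 other heart and muscle samples the median member ranged from 0% to 13.4% of its blood level (median 2.45%), and at most 9 members reached 50%.

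Platelet genes, none of them members, were also high in these samples. TUBB1, the platelet tubulin, had a blood median of 74.2 CPM and stood at 6748, 2902, 2799 and 2145 CPM in samples 38, 3, 4 and 55, which is 90.9, 39.1, 37.7 and 28.9 times that median. F13A1, a clotting factor of platelets and macrophages, was 34.0, 20.6, 29.9 and 21.2 times, and ITGB3, a fibrinogen receptor chain, 37.1, 51.9, 66.5 and 25.6 times its blood median in the same samples. In samples 44 and 19 the sum of the 3 genes was 364% and 128% of blood, and in the 39 other samples 4.51% to 250%. The other 11 platelet genes in the table had a blood median under 10 CPM and were left out, a choice made after the member percentages had been seen. The 8 monocyte genes with a blood median of at least 10 CPM summed to 852% of blood in sample 44 and 90.9% to 456% in the other member-rich samples, against 9.17% to 657% in the 39 other samples. In sample 44 these genes ranged from 0.0401 times blood for CX3CR1, a receptor of patrolling monocytes, to 19.0 times for VCAN, a matrix proteoglycan. VCAN, at 4632 CPM in sample 44, reached 5215 CPM among the 39 other samples. The part of platelets or myeloid cells in the member levels was not tested.

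Among themselves the members mostly varied together across heart and muscle. Each member's log2(CPM + 1) was correlated with the mean of the other members over the 45 samples, which share pigs and differ in depth, so these values are a description. The median Pearson r was 0.752 (Spearman rho 0.693), and 160 of 181 members had an r of at least 0.5. Among 20634 other genes the median r with the member mean was 0.193, and 8.74% reached 0.5. These were all other genes with a count, with no limit on their level, so they were not matched to the members. The 45 samples also include the baseline conventional EMB and skeletal muscle samples that served the rule. Highest were ENSSSCG00000010383 (0.915), DOCK8 (0.915), IL2RG (0.913), ENSSSCG00000008193 (0.902) and BIN2 (0.899). DOCK8 is a regulator of white cell shape and migration, IL2RG the shared chain of several interleukin receptors, and BIN2 a membrane-bending protein of white cells.

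Average linkage on 1 − r, cut at 0.5, put 139 members in a single cluster. It held all 19 genes of most white cells, all 5 B cell genes, all 3 neutrophil genes and 6 of 13 T and NK cell genes, with HBB and ALAS2. The next clusters were small. One had 7 genes with CCR7, SKAP1 and IL7R (T cell genes), one had 4 genes with CD3D, TRAT1, CTSW and CRLF3, one had 4 genes with EPB41 and GABARAPL2, one had 4 genes with DMTN, EVI2B and CMAH, and one held HMMR, DLGAP5 and BUB1B, which all act in mitosis. Another 10 members joined no other.

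The red cell genes were the list least tied to the other members, most of which are not red cell genes. Their r with the other members was 0.783 for ALAS2, 0.641 for HBB, 0.474 for HBM and 0.376 for DMTN, a median of 0.558, against 0.799 for genes of most white cells, 0.825 for neutrophils, 0.755 for B cells and 0.684 for T and NK cells. The median r between a red cell gene and a gene of most white cells was 0.395, and that between a neutrophil gene and a gene of most white cells 0.675. Between red cell genes it was 0.454, the lowest within any of these lists (0.547 to 0.686 in the others). Without the member-rich samples it was 0.492, against 0.494 for genes of most white cells and 0.331 to 0.448 for the other lists. The members least tied to the rest were ENSSSCG00000013384 (-0.14), TRMO (0.118), DLGAP5 (0.280), SLC25A39 (0.303) and GABARAPL2 (0.317). TRMO modifies transfer RNA, SLC25A39 is a mitochondrial carrier and GABARAPL2 acts in autophagy.

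The values depended on the member-rich samples. Without them (39 samples) the median r was 0.574, 113 members had an r of at least 0.5, and the largest cluster held 36. An r of at least 0.5 was then seen for 18 of 19 genes of most white cells, 10 of 13 of T and NK cells, 2 of 3 of neutrophils, 1 of 5 of B cells and 0 of 4 of red cells. Without the 4 samples nearly lacking heart muscle markers (41 samples) the median r was 0.656 and the largest cluster had 77 members.

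**Figure D3:**
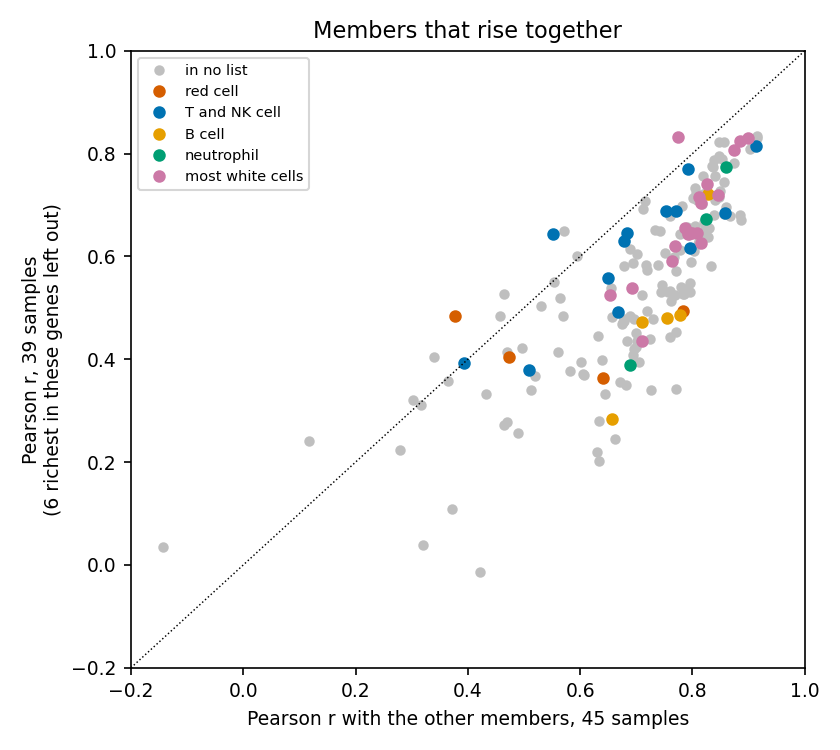
Each point is 1 member, with its Pearson r with the mean of the other members over 45 heart and muscle samples on the horizontal axis and over the 39 samples left without the member-rich ones on the vertical axis. Colour marks the marker list, and the dotted line marks equal values. Most points lie under the line, with red cell genes (median 0.558 and 0.444) lower than genes of most white cells (median 0.799 and 0.648).

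The day 7 comparison asks which members differ between the naive heart and the heart at follow-up. Micro-EMB samples took no part in choosing the members, so they were tested with edgeR's quasi-likelihood test with the pig as a block, 12 day 7 samples against 17 baseline samples, Benjamini-Hochberg adjusted over all 10029 genes that passed a filter on low counts. No member of the 133 that passed was called at an adjusted p under 0.05, in either direction, and over all genes 0.00997% were called higher (1 gene, POSTN, which is no member) and 0% lower. At an unadjusted p under 0.05, 4 members were higher and 0 lower, which is 3.01% higher against a background of 3.18% of all genes tested, and none lower against 0.588%. DESeq2 likewise called 0 members, with 9 higher (7.03% of those given a p, against 3.95% of all genes) and 1 lower (0.781%, against 2.08%) unadjusted. The members' median log2 difference was 0.44 and 100 of 133 were positive, against a median of 0.09 and 56.9% positive over all genes. Without samples 4 and 36 the members' median was 0.85, with 22 members higher (16.5%, against 2.76% of all genes) and 0 lower (against 1.02%) unadjusted. Members vary together across samples, so they are not independent of each other. Here and in the comparisons by pig below, counts and shares of members are a description.

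Markers of other cell types differed between the same groups. The 8 fibroblast markers summed to a median of 16283 CPM at baseline (1047 to 55537) and 40811 CPM on day 7 (5281 to 98193), and the 8 heart muscle markers to 98406 CPM (221 to 159878) and 48708 CPM (591 to 125084). The 7 endothelial markers stood at 1298 CPM (378 to 1799) and 1152 CPM (175 to 1824). The groups overlapped for each list, and the part of these cell types in the member values was not tested. In the test of all 29 samples 48 members were too low to be tested, among them all 5 B cell genes and 2 of 4 red cell genes.

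The 4 members named by that unadjusted count, chosen after their values were seen, were FTL, CD53, ENSSSCG00000016451 and ENSSSCG00000009240. FTL had a median of 156 CPM at baseline (15.8 to 573) and 318 CPM on day 7 (130 to 2252), and the groups overlapped. Its log2 difference was 0.97 ± 0.43 (SE, edgeR adjusted p = 1.00), and the range over all alternative settings ran from -0.81 in pig 4491 alone to 2.63. CD53 had a median of 9.93 CPM at baseline (0 to 792) and 27.5 CPM on day 7 (12.0 to 1527), with a log2 difference of 1.96 ± 0.90. Red cell members lay near 0, at -0.19 ± 0.70 for HBB and -0.04 ± 0.50 for DMTN.

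A second test asked which members moved apart from the rest, by adding to the model each sample's blood index, the mean log2(CPM + 1) over the 181 members. Again 0 of 133 members were called (background 0.00997% of genes higher), with 5 members higher and 0 lower at an unadjusted p under 0.05, or 3.76% higher against 3.56% of all genes, with 0.628% of all genes lower. DESeq2 also called 0, with 5 higher (3.76%, against 4.08% of all genes) and 1 lower (0.752%, against 2.83%) unadjusted. The smallest p belonged to SLAMF7, a receptor on NK cells, activated T cells and plasma cells, with a log2 difference of 2.52 ± 0.85 (edgeR unadjusted p = 0.00584, adjusted p = 0.862). The others were FTL, ENSSSCG00000016451, ENSSSCG00000009240 and a further gene without a symbol.

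SLAMF7 had 0 reads in all 8 baseline micro-EMB samples of pigs 4664 and 4665, where 3 reads would be 0.784 to 3.95 CPM depending on depth. On day 7 it stood at 25.5, 40.7 and 26.8 CPM in pig 4664 and at 13.7, 2.33 and 25.1 CPM in pig 4665. In pig 4491 it went from 458 and 5.72 CPM at baseline to 4.99, 0 and 3.94 CPM, and in pig 4494 from 47.5, 31.0, 1.63 and 13.2 CPM to 5.81, 3.88 and 56.3 CPM. All day 7 samples lay above all baseline samples in pigs 4664 and 4665, below them in pig 4491, and among them in pig 4494.

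The same contrast between pigs ran through the members as a whole. In pig 4664 their share of counted reads was 0.190%, 0.244% and 0.270% at baseline and 0.405%, 0.531% and 0.619% on day 7. In pig 4665 it was 0.159%, 0.257%, 0.274%, 0.298% and 0.343% at baseline and 0.432%, 0.464% and 0.602% on day 7. Neither pig's groups overlapped, and none of these samples was member-rich. The 0.405% of pig 4664 belongs to sample 36, which nearly lacked heart muscle markers and is kept in the values by pig below. In pig 4491 the order was turned, with 0.712% and 3.91% at baseline and 0.234%, 0.418% and 0.533% on day 7. In pig 4494 the groups overlapped, with 0.330% to 1.30% at baseline and 0.279%, 0.571% and 3.05% on day 7.

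Gene by gene, every day 7 sample lay above every baseline sample for 46 of 181 members in pig 4664 (25.4%, against 5.68% of all genes with a count) and for 41 in pig 4665 (22.7% against 1.77%). In these pigs it lay below for 2 members (against 2.90% of all genes) and 1 member (against 0.233%). It lay below for 65 members in pig 4491 (35.9% against 5.83%), which had only 2 baseline samples, 1 of them sample 4, and for 11 in pig 4494 (6.08% against 5.68%). Members above in both pigs 4664 and 4665 numbered 15 (8.29%, against 0.278% of all genes), among them PTPRC, LCP1, HCLS1, LCP2, CD2, PSTPIP1, GIMAP4, GIMAP6, CD84 and SLAMF7. No red cell, neutrophil or B cell list gene was among them. These lists hold only 4, 3 and 5 members, and all B cell genes and 2 red cell genes were too low for the test of all samples. Their absence therefore says little.

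The lists behaved unequally. Genes of most white cells stood at 2.05%, 2.66% and 2.87% of blood at baseline in pig 4664 and at 6.79%, 7.74% and 11.2% on day 7. In pig 4665 they ranged from 1.27% to 3.58% (median 2.77%, n = 5) and then stood at 6.84%, 8.96% and 9.55%. T and NK cell genes went from 0.580%, 0.789% and 1.06% to 3.04%, 3.76% and 6.74% in pig 4664, and from 0.475% to 2.10% (median 1.24%, n = 5) to 2.38%, 5.28% and 7.05% in pig 4665. Both lists were thus separated by day in both pigs. Red cell genes, at 0.0793% to 0.162% and then 0.0519% to 0.197% in pig 4664 and at 0.0363% to 0.164% and then 0.0198% to 0.0957% in pig 4665, overlapped, as did the neutrophil and B cell members. With the 10 neutrophil list genes, pig 4664 was separated by day (1.24%, 2.18% and 3.25% of blood at baseline against 7.89%, 7.92% and 19.9%) and pig 4665 was not.

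**Figure D4:**
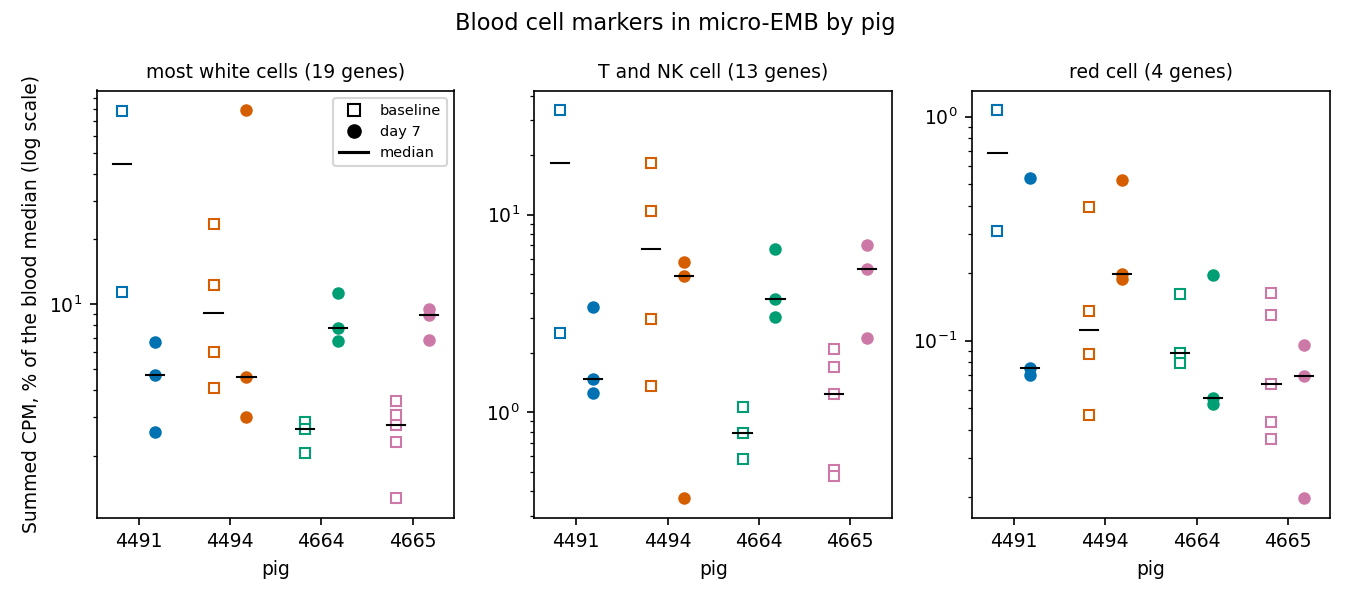
For each of 4 pigs, open squares are baseline and filled circles day 7 micro-EMB samples, bars are medians, and the logarithmic vertical axis gives the summed CPM of a list as a percentage of its blood median. Genes of most white cells and of T and NK cells are separated by day in pigs 4664 and 4665, at 6.79% to 11.2% against 1.27% to 3.58% for the former, while red cell genes overlap in all 4 pigs.

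By the labels, pigs 4664 and 4665 gave micro-EMB only, and pigs 4491 and 4494 also gave conventional EMB, blood and skeletal muscle. Each pair was therefore fitted alone, a split made after the values by pig had been seen. In pigs 4664 and 4665 (6 day 7 against 8 baseline samples) edgeR called 0 of 129 members and 0 of 10241 genes, but 44 members were higher and 0 lower at an unadjusted p under 0.05, or 34.1% against a background of 3.46% of all genes tested (1.19% lower). The members' median log2 difference was 1.19, against 0.03 over all genes. As members vary together, the 44 are not 44 independent results. In pigs 4491 and 4494 (6 against 6) it called 0 of 140 members and 0 of 9828 genes, with 1 member higher (against 1.48% of all genes) and 15 lower unadjusted (10.7%, against 1.42%) and a median of -0.77.

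In pigs 4664 and 4665 the members with the smallest p were GIMAP4 (1.59 ± 0.36 on the log2 scale, edgeR adjusted p = 0.718), LCP2 (1.72 ± 0.44, adjusted p = 0.873) and CD2 (3.36 ± 0.88, adjusted p = 0.873). GIMAP4 is a lymphocyte GTPase, LCP2 a signalling adaptor of T cells and other white cells, and CD2 an adhesion receptor of T and NK cells. PTPRC stood at 53.4, 26.4 and 54.0 CPM at baseline and 205, 101 and 122 CPM on day 7 in pig 4664, and at 39.5, 48.1, 73.8, 70.8 and 0 CPM and then 265, 135 and 141 CPM in pig 4665. LCP1 stood at 32.7, 45.1 and 48.9 CPM and then 185, 175 and 140 CPM in pig 4664, and at 13.2, 55.5, 70.4, 70.8 and 59.5 CPM and then 79.2, 153 and 83.2 CPM in pig 4665. Both genes were thus higher on day 7 without overlap in each pig. Of the 18 tested genes of most white cells, 18 were positive and 14 passed the unadjusted limit, and of 6 tested T and NK cell genes 5 did. The 2 tested red cell genes were at -0.99 ± 0.89 (HBB) and -0.09 ± 0.68 (DMTN).

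In pigs 4491 and 4494 the smallest p belonged to GNLY (granulysin, of killer cells), at -3.98 ± 1.27 (edgeR adjusted p = 0.998). CD2 was at -2.95 ± 1.11. All 10 tested T and NK cell genes were negative and 3 passed the unadjusted limit. Without baseline sample 4 the members' median moved from -0.77 to -0.02, with 4 members higher (against 3.21% of all genes) and 3 lower (against 2.66%) at an unadjusted p under 0.05. Without samples 4, 19 and 44, which are member-rich, the median was -0.50, with 0 members higher (against 3.35% of all genes) and 11 lower (8.21%, against 2.34%). Pig 4494 alone had a median of 0.07, with 11 members higher (6.96%, against 2.74%) and 6 lower (3.80%, against 3.37%), while pig 4491 alone, with 2 baseline samples, had a median of -2.50. Leaving out sample 36 in the other pair gave a median of 1.27, with 48 members higher (35.8%, against 3.22% of all genes) and 0 lower (against 1.37%).

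The difference between the pairs was fitted in one model over the 26 samples of the 4 pigs. The pairs were split after the values by pig had been seen. The direction was therefore known beforehand, and the counts at an unadjusted p are a description. No member of 127 was called and 0 of 9832 genes were, with 42 members positive and 0 negative at an unadjusted p under 0.05 (33.1%, against 2.21% of all genes positive), meaning a more positive day 7 difference in pigs 4664 and 4665. CD2 differed by 6.34 ± 1.48 on the log2 scale (edgeR adjusted p = 0.477). SLAMF7 had the smallest p (edgeR adjusted p = 0.477), and no size is given for it because its baseline was at 0 reads in pigs 4664 and 4665. Without samples 4 and 36 the positive members numbered 22 of 125 (17.6%, against 3.24% of all genes), and without the member-rich micro-EMB samples 37 of 120 (30.8%, against 2.40%).

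**Figure D5:**
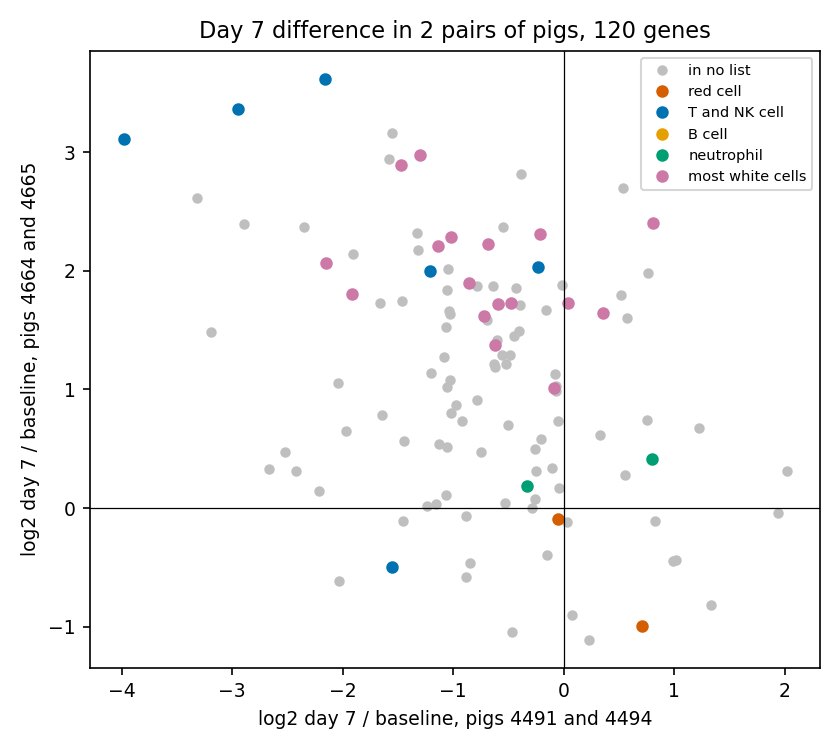
Each point is 1 of 120 members tested in both pairs of pigs, with its day 7 against baseline log2 difference in pigs 4491 and 4494 on the horizontal axis and in pigs 4664 and 4665 on the vertical axis. Of these, 88 lie in the upper left, positive in pigs 4664 and 4665 and negative in pigs 4491 and 4494, and no single member passed an adjusted test in either pair. The share of all genes in that corner was not counted, and the pairs were split after the values by pig had been seen. The 88 members, which vary together, are therefore a description. In pigs 4491 and 4494 the members' median was -0.77, -0.02 without baseline sample 4, and -0.50 without the member-rich samples.

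With the blood index in the model, pigs 4664 and 4665 had 5 members higher (3.88%, against 3.44% of all genes) and 3 lower (2.33%, against 5.18%) at an unadjusted p under 0.05 and a median log2 difference of 0.10, which was -1.27 without sample 36. The index is the mean of the members themselves and differs by day in these pigs. In pigs 4491 and 4494 the same model gave 11 members higher (7.86%, against 2.98% of all genes) and 1 lower (0.714%, against 2.81%), a median of 0.18. In neither pair was a member called.

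Conventional EMB on day 7 came from 4 samples and is given without a test, since its baseline samples served the rule. HBB stood between 21.8 and 6420 CPM (median 2133), PTPRC between 40.3 and 2247 CPM (median 429) and ALAS2 between 4.78 and 776 CPM (median 250). The upper values belong to samples 3 and 55. At baseline HBB ranged from 24.0 to 546 CPM and PTPRC from 60.0 to 1628 CPM, so the groups overlapped.

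Over the 6 blood samples the coefficient of variation of a member had a median of 26.5% and ranged from 5.56% to 98.6%, the highest being HBM, a globin gene, at 78.8 to 901 CPM. Values of pigs 4491 and 4494 did not overlap for 21 members (11.6%, against 8.92% of all 1884 genes with a blood median of at least 100 CPM), a share near that of all genes. MS4A1 was at 223 to 240 CPM in pig 4491 and 396 to 522 CPM in pig 4494, without overlap. NCF1 was at 184, 291 and 303 CPM in pig 4491 and 71.1, 108 and 218 CPM in pig 4494, with overlap.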

How the data were processed

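Whole-number read counts for 25114 genes in 54 samples were used as deposited. Per the labels and the study's methods, the authors isolated total RNA, made libraries with a stranded total RNA kit, trimmed reads with Trim Galore, mapped them to Sscrofa10.2 with STAR and counted them per gene with featureCounts (versions not given in the sources used here). No normalization had been applied to the counts. Symbols came from a gene table (11791 genes matched). No genome was given, and the RefSeq table is of another build, so no coordinates or sequences are printed.

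Members, lists, tests and named genes were chosen with earlier results of these data known. Named genes are the 10 most abundant in blood, the 10 of highest ratio, up to 4 per marker list, the 3 nearest each limit, the 5 highest and lowest correlations, and members called on day 7, of which there were none, so other names were chosen after their values were seen. Day 7 was tested with edgeR 4.0.16 (TMM, filterByExpr, quasi-likelihood) in R 4.3.3, at an adjusted p of 0.05, with DESeq2 1.42.0 as an alternative. Standard errors were derived from the fold change and F statistic. The fits were also run on simulated counts, drawn gene by gene with no difference between pigs and no variation shared by members. That run does not bear on the pig block or the blood index. Correlations, clusters, figures and the 95% Wilson intervals, which cover counting error only, used Python 3.11.15, numpy 2.4.6, scipy 1.17.1 and matplotlib 3.10.9. The member-rich limit was 3 times the median share, of all 48 heart and muscle samples or, in the day 7 tests, of micro-EMB samples. Low heart muscle markers means under 1000 CPM summed. Counts of non-overlapping values used all genes with a count in micro-EMB. The 3 samples with few genes detected were left out of tests and correlations. Alternatives left out samples or pigs, changed the scaling, filter, tool, pig term or index, or summed counts per pig and day. Single values of some list genes are not reported here.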

Additional observations from a re-analysis of the deposited data

Results flagged for a closer look

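Gaps within groups of 4 to 6 samples were examined for the member share and the 5 list percentages, in 24 groups of values, of which 9 are given here. All 9 come from samples 38 and 57, seen again over measures that are not independent. Both samples belong to groups whose medians chose the members. The limit's chance rate of about 1 in 20 therefore does not apply, and these values are a description. In baseline conventional EMB, sample 38 lay far from the other 5, with a member share of 4.03% (next 0.730%), 91.9% of blood for neutrophil genes (next 10.18%), 17.7% for T and NK cell genes (next 4.91%) and 77.8% for genes of most white cells (next 11.0%). Its heart muscle markers summed to 103 CPM. In skeletal muscle, sample 57, with 325907 counted reads, lay far above the others, with a member share of 0.738% (next 0.159%), 12.9% of blood for neutrophil genes (next 1.60%), 11.0% for T and NK cell genes (next 1.53%), 5.15% for B cell genes (next 1.37%) and 6.56% for genes of most white cells (next 1.48%). Its red cell genes, at 0.111%, did not stand apart.

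On the summed members and on genes of most white cells, every day 7 micro-EMB sample lay above every baseline sample in pigs 4664 and 4665. In pig 4491 every day 7 sample lay below every baseline sample, and in pig 4494 the groups overlapped. These differences were not tested on these sums. The summed members, in percent of blood, had a day 7 median that differed from the baseline median by -11.6 points in pig 4491, 1.76 points in pig 4664 and 1.17 points in pig 4665. For genes of most white cells the differences were -39.9, 5.08 and 6.19 points. The baseline of pig 4491 held 2 samples, of which sample 4 was member-rich and nearly lacked heart muscle markers.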

How the results depend on the processing

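The count of members called on day 7 was 0 in either direction under 34 alternatives without and 32 with the blood index. The members' median log2 difference (0.44) ranged from 0.15 (without sample 44) to 0.63 when single day 7 samples were left out, was -0.01 without pig 4665, 0.02 without pig 4664, 1.04 without pig 4491 and 0.13 without the pig block, and was -2.50 in pig 4491 alone, 0.07 in pig 4494 alone and 0.85 without samples 4 and 36. With the index (0.25) it ranged from -1.27, in pigs 4664 and 4665 without sample 36, to 0.44. Members higher at an unadjusted p under 0.05 (4) ranged from 0 without sample 52 or without pig 4664 to 48, with 15 without a filter (8.29% against 2.94% of all genes), 35 without pig 4491 (24.5% against 3.40%) and 22 without samples 4 and 36 (16.5% against 2.76%). Of the members named from these counts, signs turned in pig 4491 alone for FTL (-0.81), CD53 (-4.34), ENSSSCG00000016451 (-0.16) and ENSSSCG00000009240 (-0.51), for CD53 (-1.51) and, with the index, SLAMF7 (-0.19) in pigs 4491 and 4494 without member-rich samples, and, with the index, for FTL (-0.80) and ENSSSCG00000016451 (-2.33) in pigs 4664 and 4665 without sample 36. The cause was not tested. The difference between pig pairs had 0 members called in both alternatives. Median r was 0.574 and the largest cluster 36 without member-rich samples, and 77 without samples low in heart muscle markers. Taking the median over members in place of the sum moved no list's group median by more than the spread between samples. Some single samples moved by more than the spread between blood samples. Most white cells stood at 47.2% instead of 78.9% in sample 44 and 60.9% instead of 77.8% in sample 4. B cells stood at 58.1% instead of 80.0% in sample 4. Neutrophil members stood at 142% instead of 91.9% in sample 38 and 125% instead of 84.0% in sample 55. T and NK cells moved in samples 3, 4, 19 and 55, and red cells in none. For neutrophils, 10 list genes in place of 3 members gave 166% instead of 158% in sample 44, 141% instead of 91.9% in sample 38, 91.7% instead of 57.7% in sample 3 and 108% instead of 84.0% in sample 55. The labels carry no replicate numbers shared between groups, and pairing within animals was by the pig block.

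Limits are the 2 pigs behind blood, muscle and conventional EMB, the 2 to 5 baseline samples per pig, and depth, since 48 members were too low to test in micro-EMB. The pig pairs, the heart marker limit and the platelet sums were chosen after seeing the data.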
